A study of Mus musculus with 6 samples.

Results

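Expression of 33 genes of the brain vasculature was followed in RNA-seq libraries of the mouse habenula, a small epithalamic region. The genes were chosen by name as markers of brain endothelial and mural cells, and each symbol matched 1 row of the 55359 genes in the table. They comprise 21 endothelial genes and 12 mural genes, the latter divided into 8 pericyte and 4 smooth muscle genes. All 6 libraries came from C57BL/6 mice aged 2 months, with 3 wild-type (WT) libraries and 3 labelled Tet2 cKO, a conditional knockout of the 5-methylcytosine dioxygenase gene Tet2. No treatment is named in the labels. The Cre driver, the deleted exons, and whether a library is 1 animal or a pool have no statement in the sources used here. The p-values therefore measure only the spread between these 6 libraries, which may be technical.

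Endothelial cells line the vessel wall, and in most of the brain they form the blood-brain barrier by sealing their contacts with tight junctions and by moving nutrients through dedicated transporters. Mural cells wrap the endothelium: pericytes on capillaries, and contractile smooth muscle cells on arterioles and larger vessels. Endothelial cells recruit pericytes with the growth factor PDGF-B, which signals through Pdgfrb, and pericytes in turn support the barrier.

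Library totals lay between 16089676 and 17917987 counts. WT replicate 3 stood apart: its counts differed from those of the other 5 libraries by a chi-square of 10.4 to 20.3 per tested gene, against 4.09 to 10.4 between the others. Among those others Tet2 cKO replicate 1 stood apart too, at 8.55 to 10.4, and the rest differed from each other by 4.09 to 7.07. WT replicate 3 also had the largest share of mitochondrial counts, 7.66% against 5.43% to 6.44%. Tet2 itself did not lie below WT in the cKO-labelled libraries. Each of them lay above every WT library, at 4.47, 4.02 and 3.96 FPKM (counts scaled to exonic length and to the library total) against 3.45, 3.46 and 3.71 FPKM in WT. The log2 difference was 0.22 (SE 0.0768, edgeR unadjusted p = 0.0174, adjusted p = 0.9999), and leaving out each library gave 0.17 to 0.26. The whole-gene count does not show the deletion, so directions below are those of the label only. In whole tissue, fewer cells of a type and less RNA per cell cannot be told apart.

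Promoter windows of RefSeq (GRCm38.p6, 250 bases before each start) were matched to 22 of the 33 genes. The first sequence below belongs to Cldn5, the gene whose level varied most between libraries. The others are shown because they hold motifs linked to the cell type, an ETS core in an endothelial gene and CArG-like stretches in a smooth muscle gene. They come from chr16:18776597-18776846 (plus strand, Cldn5), chr2:26583615-26583863 (plus strand, Egfl7), chr19:34255438-34255467 and chr19:34255388-34255417 (minus strand, Acta2), and capitals mark the motifs. Egfl7 has 3 windows. The window shown was picked as holding the ETS letters and no CArG-like stretch, and its last base is left out. Another Egfl7 window holds both motifs, and the remaining window holds neither.
Cldn5: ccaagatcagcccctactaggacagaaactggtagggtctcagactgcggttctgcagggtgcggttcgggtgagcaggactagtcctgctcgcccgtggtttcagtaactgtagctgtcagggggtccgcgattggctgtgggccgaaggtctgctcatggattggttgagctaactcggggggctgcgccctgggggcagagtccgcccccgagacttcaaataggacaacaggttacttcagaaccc
Egfl7: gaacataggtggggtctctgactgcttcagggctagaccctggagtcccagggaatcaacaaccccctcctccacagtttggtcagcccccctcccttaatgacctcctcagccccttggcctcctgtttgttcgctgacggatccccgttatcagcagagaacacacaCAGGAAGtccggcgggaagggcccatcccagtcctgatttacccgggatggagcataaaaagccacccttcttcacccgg
Acta2, upstream stretch: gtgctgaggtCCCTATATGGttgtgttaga
Acta2, downstream stretch: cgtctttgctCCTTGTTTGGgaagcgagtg

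The CArG box is the binding sequence of serum response factor, which drives contractile genes of smooth muscle. In its strict form, read on both strands, it was in none of the members' windows and in 1.47% of 32851 windows of all genes. A looser form was searched afterwards, CC and GG around 6 bases of which at least 5 are A or T. It was in 8.59% of all windows, in 5 of 18 endothelial windows and in 1 of 8 mural windows, that of Acta2. Among the smooth muscle genes only Acta2 and Des had a window, so Tagln and Myh11 were not searched. The Acta2 stretches begin 84 and 34 bases before the RefSeq start. ETS factors such as ERG act widely in endothelial genes. The letters CAGGAAG, read on both strands, were in 3 of 18 endothelial windows (2 genes, Egfl7 and Itm2a), in none of 8 mural windows and in 10.8% of all windows. These are matches of letters and not measured binding, and the endothelial motif was added to the planned search.

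In WT, per length of transcript, the most abundant vascular RNAs were Itm2a, Vtn, Rgs5 and Slc2a1, at means of 35.3, 34.5, 33.4 and 32.6 FPKM, which did not differ beyond their SDs of 2.43 to 6.05 FPKM. Ly6c1, Ly6a and Cldn5 followed at 28.4, 21.3 and 20.1 FPKM, Slco1a4 at 14.1 FPKM and Mfsd2a at 9.22 FPKM. The other 24 genes had WT means from 0.500 FPKM (Des) to 6.72 FPKM (Abcb1a). Summed over genes, endothelial members held 200 to 231 FPKM per library, pericyte members 76.9 to 89.7 FPKM and smooth muscle members 9.98 to 12.3 FPKM. Each of the 33 genes was detected in every library.

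**Figure D1:**
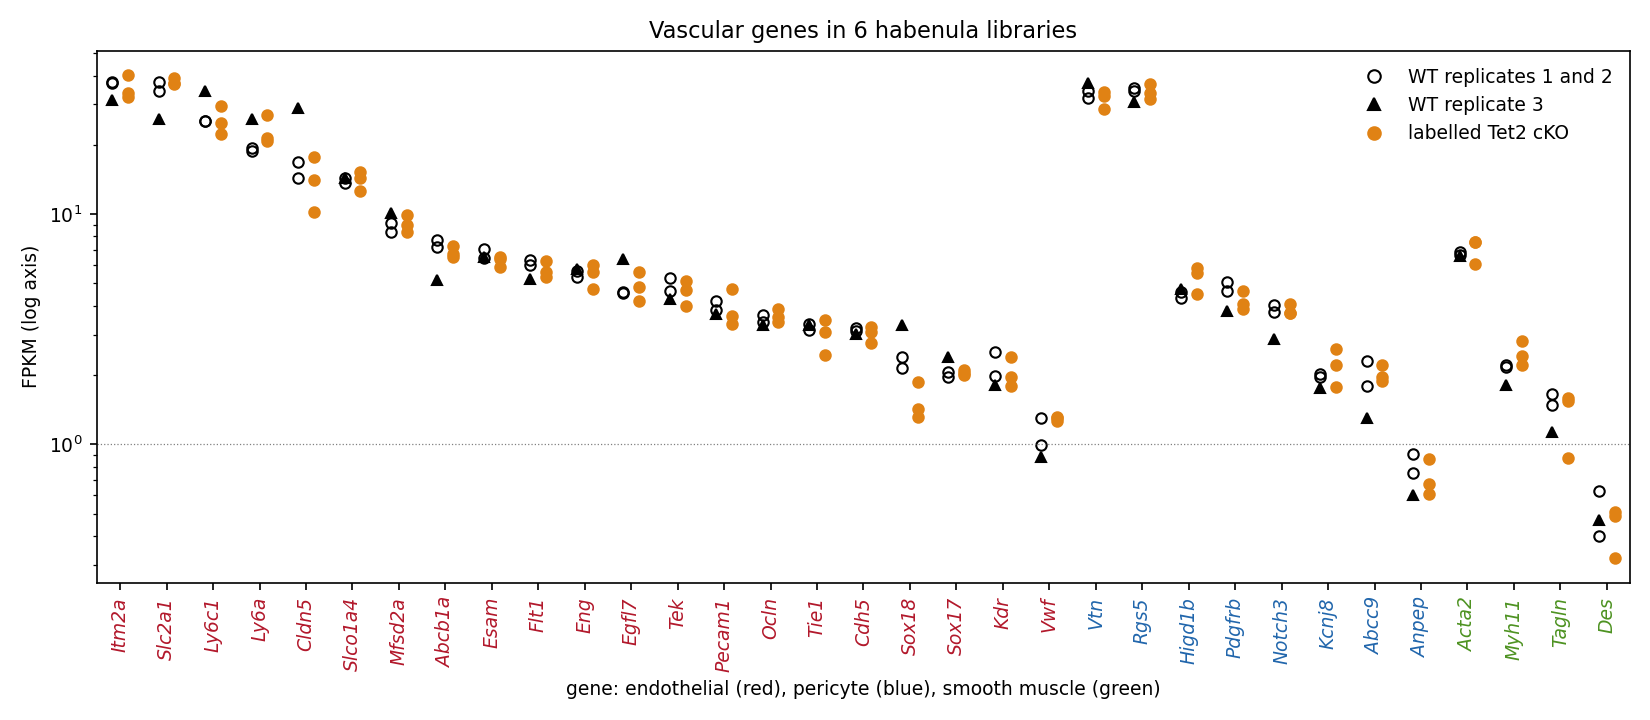
FPKM on a log axis for each of the 33 genes (x axis) in each library: open circles are WT replicates 1 and 2, black triangles WT replicate 3, orange points the libraries labelled Tet2 cKO, and the dotted line marks 1 FPKM. Sox18 is the gene of the 31 tested whose groups do not overlap, and among the points of Cldn5 the triangle is the highest, at 29.0 FPKM.

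The comparison of the libraries labelled Tet2 cKO with WT asks whether vascular expression in the habenula differs with the label. No vascular gene passed the test. The test took genes averaging 1 FPKM or more, which left 31 of the 33 members. The edgeR quasi-likelihood test called 0 of the 31 at a Benjamini-Hochberg adjusted p under 0.05, against 0 of 14539 tested genes (0%). At an unadjusted p under 0.05 it held 1 member, Sox18, against 374 of all tested genes (2.57%). That member was lower, a direction held by 1.68% of all tested genes, and 0 members were higher, against 0.894%. The groups did not overlap in 1 member, also Sox18 and lower, against 988 of all tested genes (6.8%, of which 3.46% lower and 3.34% higher). When WT replicates 1, 2 and 3 were left out in turn, 1, 5 and 2 members had an unadjusted p under 0.05, against 2.41%, 2.94% and 5.95% of all tested genes. For Tet2 cKO replicates 1, 2 and 3 the members were 2, 1 and 2, against 3.2%, 1.95% and 1.57%. The remaining 30 members had log2 differences from -0.53 to 0.28. For 23 of the 31 the 95% interval lay within 0.5 of 0 on the log2 scale.

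Endothelial members lay slightly below WT on balance and mural members slightly above. Of 21 endothelial genes 16 were lower and 5 higher, with a median log2 difference of -0.04. Of 10 tested mural genes 7 were higher and 3 lower, with a median of 0.09. Over all tested genes the median was -0.0021, and 50.9% lay below 0. Neither median kept its sign when each library was left out in turn. Without Tet2 cKO replicate 3 the endothelial median was 0.031, and without WT replicate 3 the mural median was -0.017. Among the 31 genes, 13 kept their sign in every setting tried, 7 of them higher and 6 lower.

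**Figure D2:**
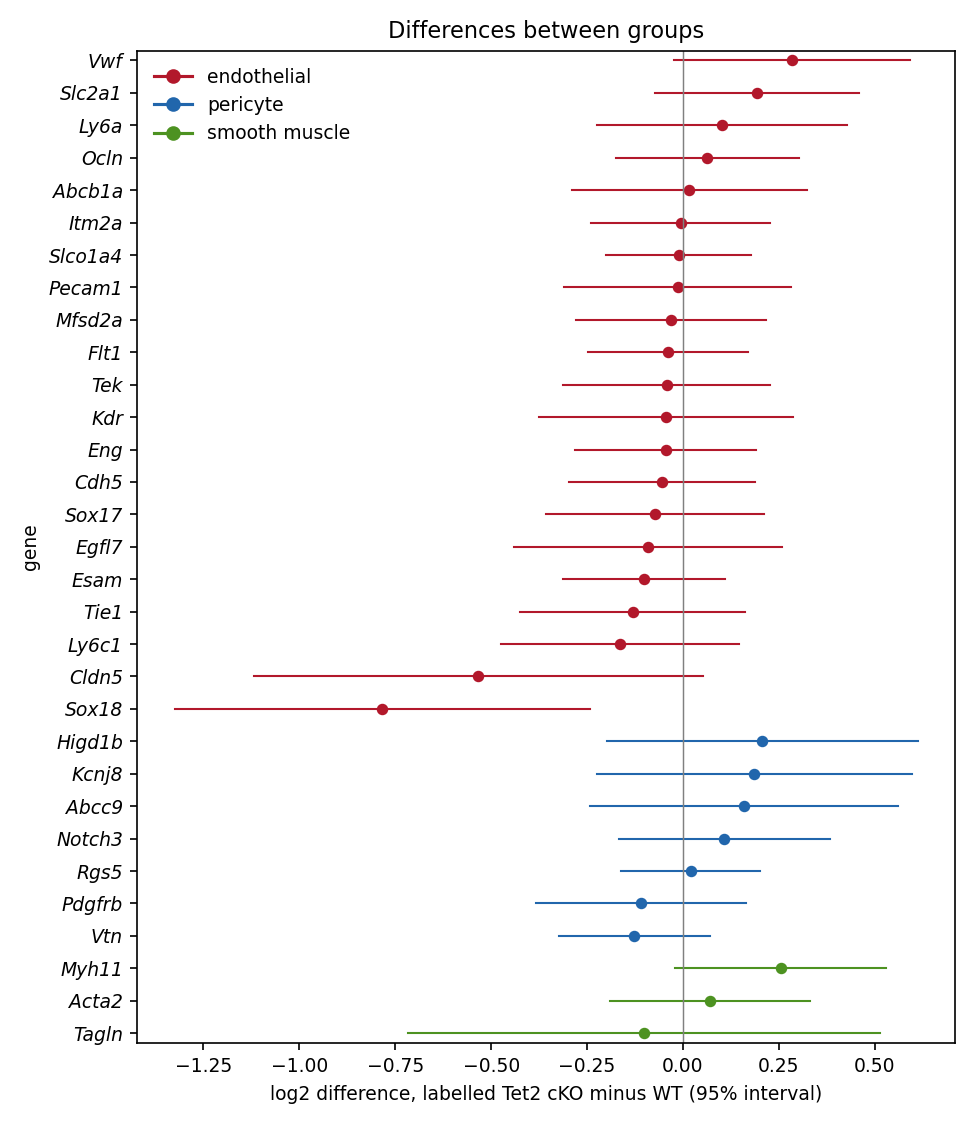
Log2 difference (labelled Tet2 cKO minus WT, x axis) with its 95% interval for the 31 tested genes, grouped by class. Intervals of all but Sox18 include 0, and endothelial points lie between -0.78 and 0.28.

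Junction and adhesion genes included the member with the widest range. Cldn5 encodes claudin-5, the main claudin of the tight junctions that seal brain capillaries (ENSMUSG00000041378, chromosome 16, 18776847 to 18778262, plus strand, GRCm38). It stood at 16.9, 14.35 and 29.0 FPKM in the WT libraries, against 17.7, 10.2 and 14.1 FPKM in those labelled Tet2 cKO. WT replicate 3 was far above the rest, Tet2 cKO replicate 2 was lowest, and the groups overlapped. The log2 difference was -0.53 (SE 0.262, 95% interval -1.12 to 0.052, edgeR unadjusted p = 0.0697, adjusted p = 0.9999). With WT replicate 3 left out it was -0.16, with Tet2 cKO replicate 2 left out -0.35, and leaving out each library gave -0.73 to -0.16. Its adjusted p was 0.0911 without a filter on low values, the lowest over its alternatives, which reached 1.

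The other junction genes varied little. Ocln (occludin, also of tight junctions), Cdh5 (the adherens junction protein VE-cadherin), Pecam1 (the adhesion molecule CD31) and Esam (an adhesion molecule at endothelial contacts) had WT means of 3.45, 3.11, 3.91 and 6.68 FPKM. The ratio of the highest to the lowest library was 1.18, 1.17, 1.42 and 1.20, against 2.84 for Cldn5. None of the 4 passed, and their groups overlapped. The structural junction genes therefore did not share the range of Cldn5.

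None of the 5 receptor genes passed. Flt1, which encodes a receptor that binds VEGF with high affinity and limits its action, was the most abundant of them per length. Its level was 6.31, 6.03 and 5.23 FPKM in the WT libraries, against 5.35, 5.60 and 6.27 FPKM in those labelled Tet2 cKO, so that both groups spanned nearly the same range. Kdr (the main signalling receptor of VEGF), Tek (the angiopoietin receptor Tie2), Tie1 (its partner receptor) and Eng (a co-receptor of the TGF-beta family) had WT means of 2.11, 4.72, 3.26 and 5.59 FPKM. All 5 log2 differences lay between -0.13 and -0.04, with groups that overlapped, and every 95% interval lay within 0.5 of 0. Only Tie1 kept its sign in every setting tried; the highest values were 0.021 for Flt1, 0.10 for Kdr, 0.055 for Tek and 0.046 for Eng.

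Transporters were led by Slc2a1, the glucose transporter GLUT1, whose exons overlap Gm12868 on the opposite strand. It stood at 34.4, 37.6 and 25.9 FPKM in the WT libraries, against 36.6, 37.0 and 38.8 FPKM in those labelled Tet2 cKO. WT replicate 3 was lowest, the other 5 libraries lay close together, and the groups overlapped. The log2 difference was 0.19 (SE 0.119, edgeR adjusted p = 0.9999). Leaving out each library gave 0.061 to 0.30, the ends belonging to WT replicates 3 and 2. Mfsd2a, a lipid transporter that also restrains transcytosis, Abcb1a, the drug efflux pump P-glycoprotein, and Slco1a4, an organic anion transporter, had WT means of 9.22, 6.72 and 14.1 FPKM. Their groups overlapped and none passed. Abcb1a had its lowest value, 5.19 FPKM, in WT replicate 3, against 6.51 to 7.74 FPKM in the other libraries.

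Surface proteins of endothelial cells comprised Itm2a, Ly6c1 and Ly6a. Itm2a, a membrane protein abundant in brain endothelium, stood at 37.5, 37.1 and 31.3 FPKM in the WT libraries, against 40.2, 33.5 and 32.3 FPKM in those labelled Tet2 cKO, and the groups overlapped. Ly6c1 and Ly6a (Sca-1) encode small lipid-anchored proteins of 1 gene family. Ly6c1 stood at 25.4, 25.4 and 34.3 FPKM in the WT libraries, against 29.4, 22.2 and 24.9 FPKM in those labelled Tet2 cKO, and Ly6a at 19.3, 18.8 and 25.8 FPKM in the WT libraries, against 27.0, 20.7 and 21.4 FPKM in those labelled Tet2 cKO. For both, WT replicate 3 was the highest WT library and Tet2 cKO replicate 1 the highest of its group. Without WT replicate 3, Ly6a was at 0.27 on the log2 scale (edgeR unadjusted p = 0.0399, adjusted p = 0.818). Copies of the family share sequence, since 36.7% of the stretches of 50 bases in the longest Ly6c1 transcript also occur in other genes, chiefly Ly6c2, and 10.04% of those of Ly6a. Ly6c2 itself had 1 count over the 6 libraries, so levels of Ly6c1 and Ly6a are uncertain if shared reads were dropped or assigned to 1 copy. The same holds for Abcb1a, with 16.98% shared, chiefly with Abcb1b, and for Egfl7, with 7.05%.

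Secreted proteins were Egfl7, a matrix-bound factor of growing vessels whose gene hosts the microRNA miR-126, and Vwf, the von Willebrand factor that binds platelets. Egfl7 stood at 4.59, 4.56 and 6.37 FPKM in the WT libraries, against 4.85, 4.21 and 5.62 FPKM in those labelled Tet2 cKO, highest in WT replicate 3, and its exons overlap Agpat2 on the opposite strand. Vwf stood at 0.99, 1.3 and 0.88 FPKM in the WT libraries, against 1.27, 1.3 and 1.31 FPKM in those labelled Tet2 cKO. The groups overlapped, with Tet2 cKO replicate 1 below WT replicate 2. Vwf had the largest positive log2 difference of the endothelial genes, 0.28 (SE 0.137, edgeR unadjusted p = 0.0660, adjusted p = 0.9999). Without WT replicate 3 it was 0.18 and without WT replicate 2 it was 0.45, the ends of the range over single libraries left out.

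Transcription factors comprised Sox17 and Sox18, related SoxF factors that take part in forming arteries and lymphatic vessels. Sox18 (ENSMUSG00000046470, chromosome 2, 181669836 to 181671640, minus strand, GRCm38) stood at 2.39, 2.15 and 3.30 FPKM in the WT libraries, against 1.42, 1.31 and 1.86 FPKM in those labelled Tet2 cKO. These values rest on 67, 56 and 95 counts in WT and 40, 38 and 54 counts under the label. Each library labelled Tet2 cKO lay below every WT library, and WT replicate 3 was again the highest. The level was 0.581 times that of WT (95% interval 0.399 to 0.846), a log2 difference of -0.78 (SE 0.242). It did not pass the edgeR test over all genes (unadjusted p = 0.00923, adjusted p = 0.9999), and an exact permutation test of the FPKM values (two-sided) gave p = 0.1, the smallest possible with 3 libraries against 3. Without WT replicate 3 the log2 difference was -0.57 (unadjusted p = 0.0408), and leaving out each library gave -0.95 to -0.57. With limma on log2(FPKM + 1), a scale that shrinks the differences of scarce genes, it was -0.51.

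Sox17 differed little, at 1.96, 2.07 and 2.40 FPKM in the WT libraries, against 2.11, 2.00 and 2.04 FPKM in those labelled Tet2 cKO, with groups that overlapped. Sox7, the remaining SoxF gene, was looked up after these values were seen. It stood at 0.88, 0.51 and 0.55 FPKM in the WT libraries, against 0.63, 0.41 and 0.44 FPKM in those labelled Tet2 cKO, below the level tested, with groups that overlapped. Cldn5 and Sox18 had the highest and second highest ratios of highest to lowest library among the 33 genes, 2.84 and 2.52. They also had the highest GC content of the longest transcript, 60.5% and 60.9%, and both are short, at 1416 and 1620 exonic bases. Across the 31 tested genes Spearman's rho of the log2 difference was -0.35 with GC content and 0.28 with exonic length, and -0.20 and 0.17 without Cldn5 and Sox18, given as a description across genes of the same libraries.

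Pericyte genes showed no difference that passed. Rgs5, which damps G protein signalling in pericytes, was the most abundant of them over the 6 libraries. It stood at 35.3, 34.1 and 30.6 FPKM in the WT libraries, against 36.8, 31.5 and 33.7 FPKM in those labelled Tet2 cKO, groups that overlapped almost wholly. Vtn, which encodes the matrix protein vitronectin, stood at 32.0, 34.2 and 37.2 FPKM in the WT libraries, against 34.0, 28.8 and 32.5 FPKM in those labelled Tet2 cKO, a log2 difference of -0.13 (SE 0.0879, edgeR adjusted p = 0.9999). Leaving out each library gave -0.18 to -0.056 for Vtn, with -0.056 for WT replicate 3 and -0.060 for Tet2 cKO replicate 2. The liver also makes vitronectin. A list of 20 liver genes had 29, 14 and 28 counts in the WT libraries, against 229, 211 and 224 in those labelled Tet2 cKO. Vtn itself had 1046 to 1341 counts per library. The part of liver RNA in the Vtn values was not tested.

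The ATP-sensitive potassium channel of pericytes is formed by Kcnj8, its pore (Kir6.1), and Abcc9, its sulfonylurea receptor (SUR2). Kcnj8 had WT and Tet2 cKO means of 1.91 ± 0.144 and 2.19 ± 0.411 FPKM (SD, n = 3 each). Abcc9 stood at 1.80, 2.31 and 1.3 FPKM in the WT libraries, against 1.96, 1.89 and 2.21 FPKM in those labelled Tet2 cKO. Its lowest value was that of WT replicate 3, and its ratio of highest to lowest library, 1.78, was the largest of the tested pericyte genes. The log2 difference of 0.16 (SE 0.180) turned to -0.020 without WT replicate 3 and was 0.37 without WT replicate 2. Without Tet2 cKO replicate 3 it was 0.093. Exons of Abcc9 overlap 5330439B14Rik on the opposite strand.

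Higd1b, a mitochondrial membrane protein gene enriched in pericytes, had the largest log2 difference of the class, 0.21 (SE 0.181, edgeR adjusted p = 0.9999). It stood at 4.57, 4.33 and 4.72 FPKM in the WT libraries, against 5.82, 4.48 and 5.55 FPKM in those labelled Tet2 cKO, and Tet2 cKO replicate 2 lay within the WT range. Leaving out each library gave 0.14 to 0.31, the ends belonging to Tet2 cKO replicates 1 and 2. Pdgfrb, the receptor of PDGF-B, and Notch3, a Notch receptor of all mural cells, had WT means of 4.51 and 3.55 FPKM, with groups that overlapped. Both were lowest in WT replicate 3, at 3.80 and 2.88 FPKM. Anpep, the peptidase CD13 of pericytes, was below the level tested and had 65, 50 and 44 counts in WT and 48, 64 and 45 counts under the label.

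Smooth muscle genes encode parts of the contractile apparatus. Acta2, smooth muscle actin, stood at 6.87, 6.65 and 6.57 FPKM in the WT libraries, against 7.55, 7.60 and 6.09 FPKM in those labelled Tet2 cKO. Its WT libraries were close together and lay inside the range of the other group. Myh11, the smooth muscle myosin heavy chain, stood at 2.16, 2.22 and 1.81 FPKM in the WT libraries, against 2.80, 2.41 and 2.22 FPKM in those labelled Tet2 cKO, so that the groups met at 2.22 FPKM. Its log2 difference was 0.25 (SE 0.123, edgeR unadjusted p = 0.0663, adjusted p = 0.9999), and leaving out each library gave 0.16 to 0.33, the low end without Tet2 cKO replicate 1. Tagln, the actin-binding protein SM22-alpha, stood at 1.48, 1.66 and 1.13 FPKM in the WT libraries, against 1.59, 0.87 and 1.55 FPKM in those labelled Tet2 cKO. Exons of Tagln overlap Pcsk7 and Gm48529 on the opposite strand. Its log2 difference of -0.10 (SE 0.275) had no stable sign. It was 0.013, -0.067 and -0.23 when WT replicates 2, 1 and 3 were left out, and -0.24, 0.13 and -0.22 for Tet2 cKO replicates 1, 2 and 3. Des, the intermediate filament desmin, had 41, 24 and 31 counts in WT and 21, 33 and 34 counts under the label and was not tested.

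Endothelial and mural genes were then set against each other within each library. The mean of log2(FPKM + 1) over the 21 endothelial genes exceeded that over the 12 mural genes by 0.60, 0.62 and 0.80 in the WT libraries, against 0.62, 0.59 and 0.55 in those labelled Tet2 cKO. WT replicate 3 was the highest and the other 5 libraries lay within 0.55 to 0.62. The group means differed by -0.085, against a pooled SD of 0.0805 between libraries, and without WT replicate 3 by -0.022. In that library the median deviation of the tested genes from the mean of the 6 libraries was 0.02 for endothelial, -0.18 for pericyte and -0.23 for smooth muscle genes on the log2 scale. Tet2 cKO replicate 1 had the highest endothelial median, 0.10, and Tet2 cKO replicate 2 the lowest, -0.06.

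**Figure D3:**
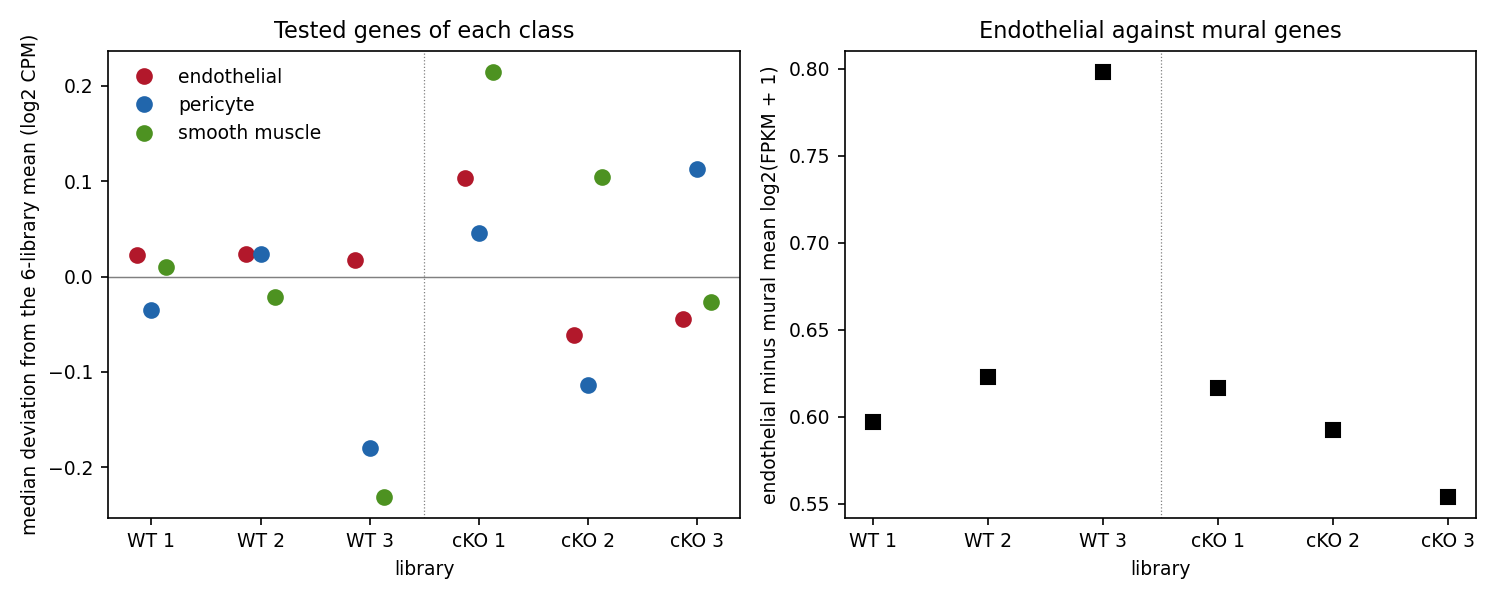
Left, median deviation of the tested endothelial (21), pericyte (7) and smooth muscle (3) genes from their mean over 6 libraries, in log2 CPM, for each library on the x axis. Right, endothelial minus mural mean of log2(FPKM + 1) in each library; WT replicate 3 stands at 0.80 and the others between 0.55 and 0.62.

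WT replicate 3 held the highest value of the 6 libraries for 7 of the 33 genes and the lowest for 13, or 21.2% and 39.4%. Over all tested genes these shares were 25.3% and 29.1%. Endothelial genes were split, 6 of 21 having their highest and 6 their lowest value there, while of 12 mural genes 1 was highest and 7 lowest. Tet2 cKO replicate 1 held the highest value for 10 genes and the lowest for 1, and Tet2 cKO replicate 2 the highest for 2 and the lowest for 10. Over all tested genes the shares were 17.4% and 12.5% for the former and 13.7% and 15.9% for the latter.

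The division within WT replicate 3 went in part with exonic length, a relation looked for after the values were seen. Against the mean of WT replicates 1 and 2, it was higher for 5 of 7 members under 2000 bases, with a median of 0.44 on the log2 scale. Of all tested genes of that length 2050 of 3235 were higher. It was lower for 9 of 10 members of 5000 bases or more, with a median of -0.32, against 3647 of 5584 of all tested genes. The members' medians were -0.04 from 2000 to 3000 bases and -0.05 from 3000 to 5000 bases. The latter range held large deviations of both signs at nearly equal length, Egfl7 (3581 bases) at 0.48 and Slc2a1 (3506 bases) at -0.47. Cldn5, at 1416 bases, was 1.87 times as high, and Abcc9, at 8373 bases, was at 0.642 times. Itm2a and Tagln were the short genes that went the other way, at -0.25 and -0.44, and Slco1a4 the long one, at 0.04. Spearman's rho between this deviation and exonic length was -0.60 over the 31 genes, -0.62 over the 21 endothelial genes and -0.61 over the 10 mural genes, given as a description across genes that share the same libraries. Set against the other 2 libraries of their group, Tet2 cKO replicates 1, 2 and 3 gave rho of -0.35, 0.48 and -0.10 over the 31 genes. Over all 14539 tested genes they gave -0.27, 0.22 and 0.08, so a trend with length was not particular to WT replicate 3. For WT replicate 3 rho over all 14539 tested genes was -0.26, and the median was 0.14 under 2000 bases and -0.09 from 5000 bases. With GC content its rho was 0.28 over the 31 genes and 0.13 over 14408 genes. For Tet2 cKO replicates 1, 2 and 3 the values with GC content were -0.13, -0.43 and 0.55 over the 31 genes and -0.04, -0.15 and 0.22 over the 14408. What part RNA quality or library preparation had was not tested.

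**Figure D4:**
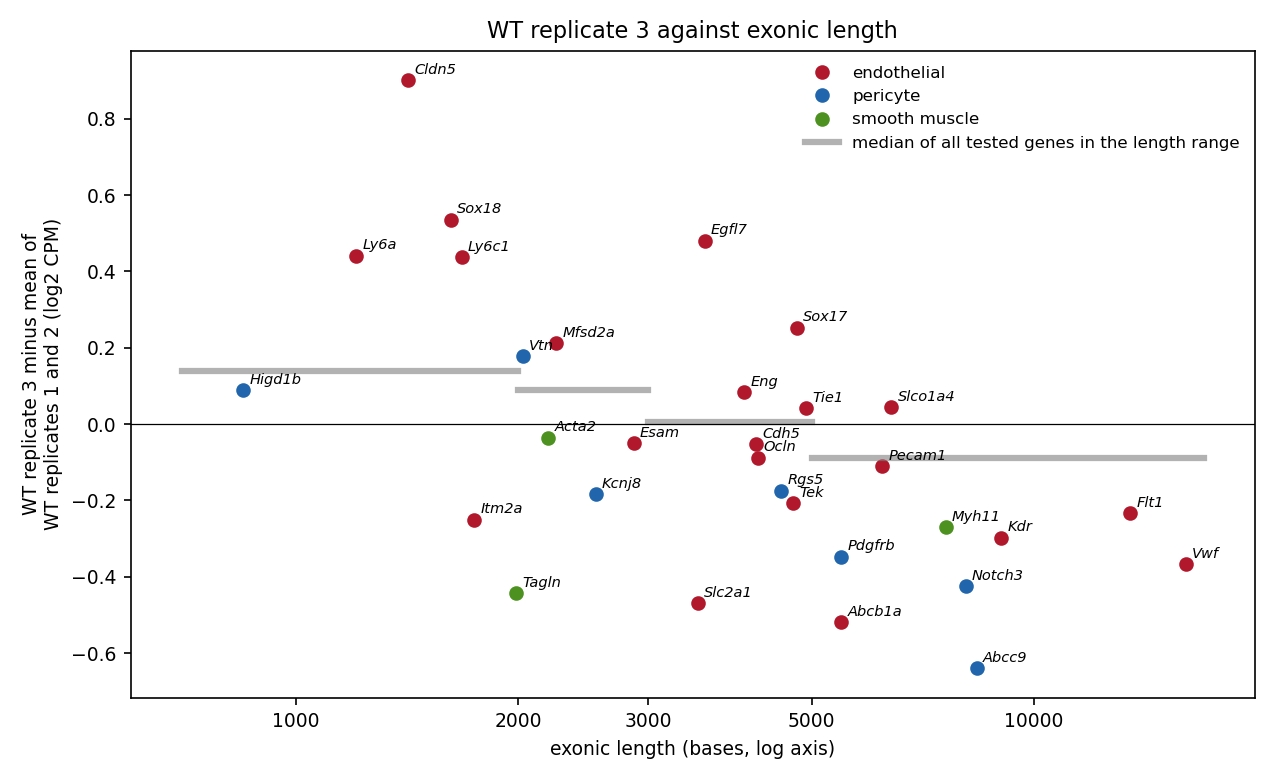
WT replicate 3 minus the mean of WT replicates 1 and 2 (log2 CPM, y axis) against exonic length (bases, log axis) for the 31 tested genes, coloured by class. Grey bars are medians of all tested genes in each length range; Cldn5 is highest at 0.90 and Abcc9 lowest at -0.64.

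Wider lists of vascular genes, none of them members, gave the same absence of calls by edgeR (0 with an adjusted p under 0.05 in each list). Of 29 tested endothelial markers, 21 were lower and 8 higher, with a median of -0.08, and 3 had an unadjusted p under 0.05 (2 lower, 1 higher), against 2.57% of all tested genes. The groups did not overlap in 5 of the 29, against 6.8% of all tested genes. Foxf2, a forkhead factor of brain vessels, stood at 1.79, 1.79 and 1.96 FPKM in the WT libraries, against 1.29, 1.25 and 1.35 FPKM in those labelled Tet2 cKO (log2 difference -0.52, SE 0.177, unadjusted p = 0.0156). Among 5 tested vein markers (2 higher, 3 lower, median -0.01), Slc38a5, an amino acid transporter of brain endothelium with an unadjusted p of 0.0446, stood at 1.96, 2.11 and 2.29 FPKM in the WT libraries, against 1.64, 1.37 and 1.77 FPKM in those labelled Tet2 cKO. Slc38a5 is also one of the endothelial markers counted above, and several of the lists share genes. Of 7 tested artery markers, 4 were higher and 3 lower, with 0 at an unadjusted p under 0.05. Of 12 tested pericyte markers, 8 were higher and 4 lower (median 0.02, with 1 at that p against 2.57% of all tested genes), and of 8 smooth muscle markers 2 were higher and 6 lower (median -0.04, with 0). Ifitm1, an interferon-induced membrane protein gene placed in the pericyte list, stood at 4.54, 3.07 and 4.07 FPKM in the WT libraries, against 7.08, 4.90 and 6.29 FPKM in those labelled Tet2 cKO. The summed level of the pericyte list was lowest in WT replicate 3, at 141 FPKM against 156 to 180 FPKM in the others. In whole tissue other cells, neurons among them, can also express genes placed in these lists, and their part in the values was not tested.

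Signalling between the cell types was described with 3 further lists. The VEGF and angiopoietin list had 10 tested genes, 5 higher and 5 lower, with 1 at an unadjusted p under 0.05, a level met by 2.57% of all tested genes. Its gene with the smallest p was Angpt1, the mural ligand of Tek, at 2.00, 2.16 and 1.70 FPKM in the WT libraries, against 2.54, 2.78 and 2.28 FPKM in those labelled Tet2 cKO (log2 difference 0.37, SE 0.135, unadjusted p = 0.0216). The list of PDGF, TGF-beta and Notch signals had 17 tested genes, 6 higher and 11 lower (median -0.05, with 1 at that p), and the Wnt and barrier induction list 16, 7 higher and 9 lower (median -0.03, with 0). Of 14 junction partners 8 were higher and 6 lower (median 0.01, with 1). Among 10 vascular basement membrane genes 4 were higher and 6 lower, with 2 at that p (2.57% of all tested genes). Lama5, a laminin chain of endothelial basement membrane, stood at 2.51, 2.34 and 2.40 FPKM in the WT libraries, against 1.95, 1.73 and 1.80 FPKM in those labelled Tet2 cKO, and Nid1, the linker protein nidogen, at 2.16, 2.16 and 1.76 FPKM against 2.52, 2.30 and 2.72 FPKM. Neither passed over all genes (edgeR adjusted p = 0.9999 each), and epithelia also make Lama5.

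Other cell types that a habenula sample can hold were measured beside these genes. The 14 choroid plexus genes summed to 1606, 955 and 511 FPKM in the WT libraries, against 925, 227 and 345 FPKM in those labelled Tet2 cKO, and all 13 tested were lower (median -1.20). Tet2 cKO replicate 2, where choroid plexus genes were lowest, also had the lowest summed endothelial level, 200 FPKM. WT replicate 1, where they were highest, had 213 FPKM. The 9 ependymal genes summed to 65.0, 68.8 and 83.7 FPKM in the WT libraries and to 53.3, 59.5 and 48.1 FPKM in the others, and all 9 were lower (median -0.48). The part of choroid plexus or ependymal tissue in the endothelial values was not tested. Plvap, which marks the fenestrated vessels of that tissue and was picked out after its values were seen, stood at 2.79, 3.16 and 2.67 FPKM in the WT libraries, against 2.77, 2.33 and 2.59 FPKM in those labelled Tet2 cKO. Fibroblast genes of vessels and meninges summed to 23.9 to 36.1 FPKM, lowest in WT replicate 3 and highest in WT replicate 1. Erythroid genes, a sign of blood left in vessels, summed to 143 to 242 FPKM, highest in WT replicate 2. Genes of microglia and perivascular macrophages summed to 109 to 128 FPKM. Astrocyte genes summed to 411 to 434 FPKM in the WT libraries and 460 to 471 FPKM in the others, with 8 of 10 higher (median 0.12). Oligodendrocyte genes were higher in 7 of 8 (median 0.10), and habenula neuron genes in 5 of 10. No gene of these lists was at 0 in all libraries.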

How the data were processed

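Values are from RNA-seq of total RNA from 6 habenula samples. The deposited table holds raw counts per Ensembl gene and FPKM values made by the authors, per the file headers. FPKM equals the count scaled to exonic size and to the library total within 0.0051. FastQC 0.10.1, cutadapt 1.9.1, HISAT2 2.0.1, SAMtools 0.1.19 and build mm10 are named in the submitters' processing notes. No source used here gives the read counter, annotation release or strand setting, and exons of 9 of the 33 genes overlap a gene on the opposite strand. These are Eng, Slc2a1, Abcb1a, Egfl7, Sox17, Abcc9, Notch3, Tagln and Des. Positions are those of GENCODE release M21 (GRCm38), joined by gene identifier. The table's exonic gene size in bases was used as deposited.

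The 14539 genes averaging 1 FPKM or more had their counts tested with edgeR 4.0.16 in R 4.3.3 (quasi-likelihood, TMM, two-sided, no covariate), with Benjamini-Hochberg adjustment at 0.05. The common biological coefficient of variation was 10.4%. Genes whose groups do not overlap were counted on FPKM. Alternatives were DESeq2 1.42.0, limma 3.58.1, other filters and scalings, a replicate block and leaving out each library. The code was tested on simulated counts. Every pair of libraries differed beyond sampling noise (chi-square per gene at least 4.09).

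The members, lists and tests were chosen with earlier results of these data known. Members got values in every library if they passed, had an unadjusted p under 0.05 or groups that did not overlap, had the highest mean of their role, or had an extreme difference or range in their class; other lists gave at most their 2 genes of smallest p. Other values given by library were chosen after they were seen. Protein sequences were not used here.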

Additional observations from a re-analysis of the deposited data

How the results depend on the processing

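None of the 33 members was called in any of 16 alternatives, which were not counted for the wider lists. Over all genes, where the main test called 0, edgeR called 49 without a filter on low values and 2 with filterByExpr, DESeq2 called 4, limma voom with library weights called 2, and leaving out each library gave 0 to 3. The count of members at an unadjusted p under 0.05, 1 in the main test, ranged from 0 (genes of at least 5 FPKM, which leaves Sox18 out) to 5 (no filter, or without WT replicate 2). Over all tested genes that count was 374, and it was 1109 without a filter, 132 at 5 FPKM, 962 with library weights, 865 with WT replicate 3 left out and 228 with Tet2 cKO replicate 3 left out. The endothelial median ranged from -0.091 to 0.031 when each library was left out, and the mural median from -0.017 to 0.13. The difference between groups in the endothelial minus mural score ranged from -0.12 to -0.022. Of the 31 tested members 18 changed sign in at least 1 setting. Among those with a log2 difference in the text from the main test, this held for Abcc9 (-0.020 without WT replicate 3, range -0.020 to 0.37) and Tagln (0.013 when WT replicate 2 was left out, 0.13 for Tet2 cKO replicate 2, range -0.24 to 0.13). Deviations of same-numbered libraries correlated at -0.041, 0.18 and -0.10, and not every library correlated best with its own number. These values cannot decide whether the numbers pair the libraries, since deviations from the mean of a group depend on each other. With the replicate block 0 genes and 0 members were called. There 4 of the 31 tested members had an unadjusted p under 0.05, against 346 of the 14539 tested genes. The medians were -0.041 and 0.091, and Tet2 was at 0.22. Sox18 rests on 350 counts over 6 libraries, and the SEs of the members reached 0.275 (Tagln). Intervals from 3 libraries a group do not show that the other genes were unchanged.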
